A study of Mus musculus with 20 samples.

Results

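The genotype difference in long-term starved PyMT breast tumor cells was examined in bulk RNA-seq read counts by comparing 3 cultures of Ctsd-/- cells with 3 cultures of Ctsd+/+ (wild type) cells, all kept for 12 weeks in DMEM/F12 medium with 1% FCS (1% FCS LT). These 6 of the 20 samples of the series were taken by their titles, and every gene of the count tables was considered. Of 45706 gene identifiers, 15178 had enough counts to be tested. To ask which differences belonged to 12 weeks alone, 3 Ctsd+/+ and 3 Ctsd-/- cultures kept for 10 days in the same medium (1% FCS) were fitted together with them, whereas the 8 tumors of the series were not used here.

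All cells were spontaneously immortalized cells from breast tumors of PyMT mice on a C57BL/6 N background, in which the MMTV promoter drives the polyoma virus middle T oncogene in the mammary epithelium. The mouse that gave the Ctsd-/- cells carried MMTV-cre, which removes loxP-flanked Ctsd sequence in the same tissue. Each genotype was represented by cells of 1 mouse, so genotype and line cannot be told apart. The 3 samples of a group are described as biological replicates of these cells, and p-values therefore measure the spread between cultures, not between mice. The labels also carry an LR number whose meaning they do not give, shared by replicates 1 and 2 of both genotypes at 12 weeks and different for replicate 3 of both.

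Cathepsin D is the main aspartic protease of lysosomes, the acidic organelles in which proteins and whole organelles delivered by autophagy are broken down. The lysosomal membrane is also the place where mTORC1, the kinase complex that couples nutrients and growth factors to anabolic growth, is switched on. Tumor cells of epithelial origin hold adherens junctions, desmosomes and keratins. In epithelial-to-mesenchymal transition (EMT) they lose these and gain vimentin, fibrillar matrix and matrix-degrading enzymes, a change for which TGF-beta is the best known extracellular signal. YAP and TEAD factors, which respond to cell spreading and stiffness, turn on an overlapping set of matrix and receptor genes.

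The targeted gene was measured first. Ctsd (chr7:142375911-142388038, GRCm38) had 1627, 1667 and 1895 CPM (read counts scaled to a common library size with TMM factors) in the 3 Ctsd+/+ cultures of 12 weeks. In the Ctsd-/- cultures it had 123, 114 and 151 CPM. The groups did not overlap and the log2 fold change (FC) was −3.74 (SE 0.36, adjusted p = 1.24e-05), with no detectable change of this difference between the culture times (interaction log2 FC 0.42, adjusted p = 0.529). The counts cover the whole gene and cannot separate the removed sequence from the rest. Between 36913179 and 40239762 reads per culture were counted on genes at 12 weeks.

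The call required an adjusted p below 0.05 together with a log2 FC beyond 1 in either direction (edgeR quasi-likelihood test, Benjamini-Hochberg over all 15178 genes). At 12 weeks 2939 genes (19.4%) were called, with 1403 higher (9.24%) and 1536 lower (10.1%) in Ctsd-/- cultures, and in 54.2% of the tested genes the 3 cultures of one genotype did not overlap those of the other. At 10 days the same call gave 1569 higher (10.3%) and 2221 lower (14.6%) genes, and 30.3% of the tested genes had an interaction with an adjusted p below 0.05. A gene was taken to differ at 12 weeks only if it was called at 12 weeks, was not called at 10 days, and had a different log2 FC at the 2 times in the same direction (interaction, adjusted p under 0.05). This held for 692 genes (4.56%), 406 higher (2.67%) and 286 lower (1.88%). Not every gene of this class was alike at 10 days. Of the 692, 545 (78.8%) had an adjusted p of at least 0.05 there. The others differed at 10 days with an adjusted p below 0.05 but a log2 FC of at most 1 in either direction. Another 554 genes were higher (3.65%) and 759 lower (5%) at both times. A further 256 were higher at 12 weeks (1.69%) but lower at 10 days, and 104 were lower at 12 weeks (0.685%) but higher at 10 days. The remaining 187 higher (1.23%) and 387 lower (2.55%) genes were not called at 10 days but had no detectable interaction.

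**Figure D1:**
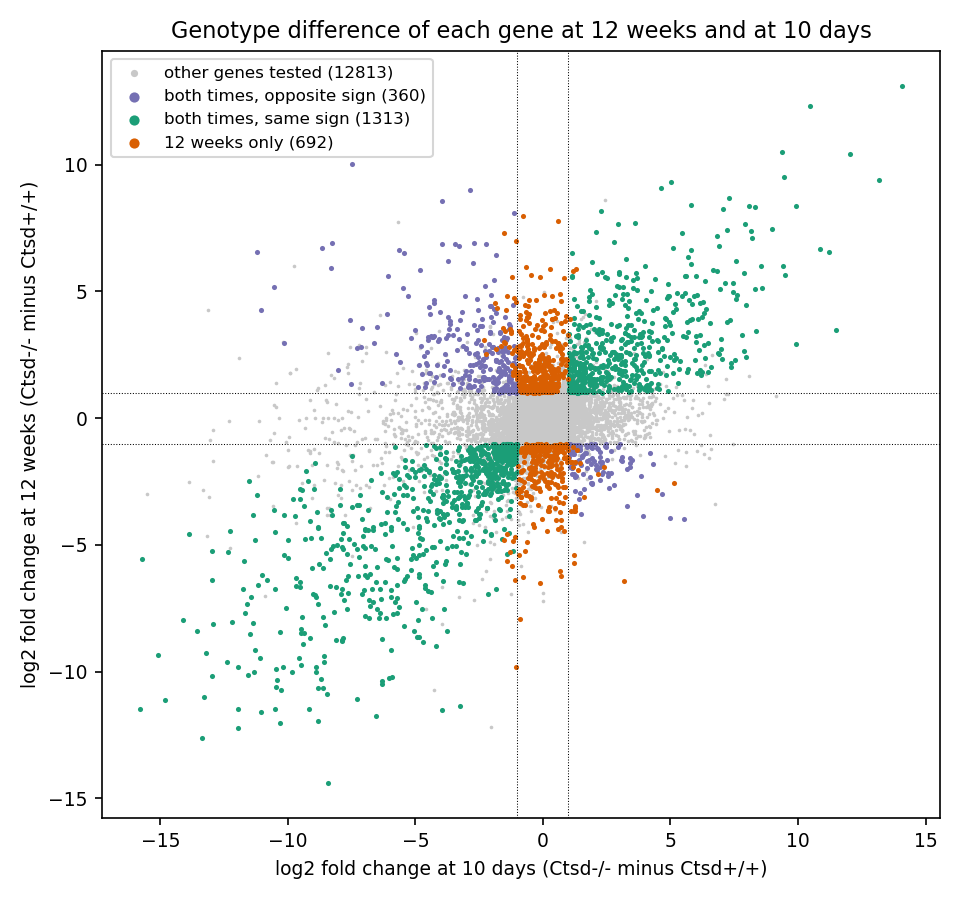
Each point is 1 of 15178 genes, with its log2 fold change between Ctsd-/- and Ctsd+/+ cells at 10 days on the x axis and at 12 weeks on the y axis; dotted lines mark a log2 fold change of 1 in either direction. The 692 genes that differed at 12 weeks only lie mostly in the middle column, the 1313 genes called with the same sign at both times lie along the diagonal, and the 360 genes with opposite signs lie in the upper left and lower right.

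The 406 genes that were higher at 12 weeks only had a median level of 3.97 on the log2(CPM + 0.1) scale in Ctsd+/+ cells and 3.95 in Ctsd-/- cells at 10 days. At 12 weeks it was 2.27 in Ctsd+/+ cells and 4.18 in Ctsd-/- cells. The wild type cells of 12 weeks thus stood below the 3 other groups. For the 286 genes that were lower at 12 weeks only the median levels were 2.03 and 2.23 at 10 days, 4.01 in Ctsd+/+ cells of 12 weeks and 2.10 in Ctsd-/- cells of 12 weeks, so the wild type cells of 12 weeks stood above the other groups. Over all genes tested, 1673 were higher (11%) and 1872 lower (12.3%) at 12 weeks than at 10 days in Ctsd+/+ cells by the same thresholds. In Ctsd-/- cells 169 were higher (1.11%) and 56 lower (0.369%). These comparisons between times share the samples of 12 weeks with the genotype comparison.

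**Figure D2:**
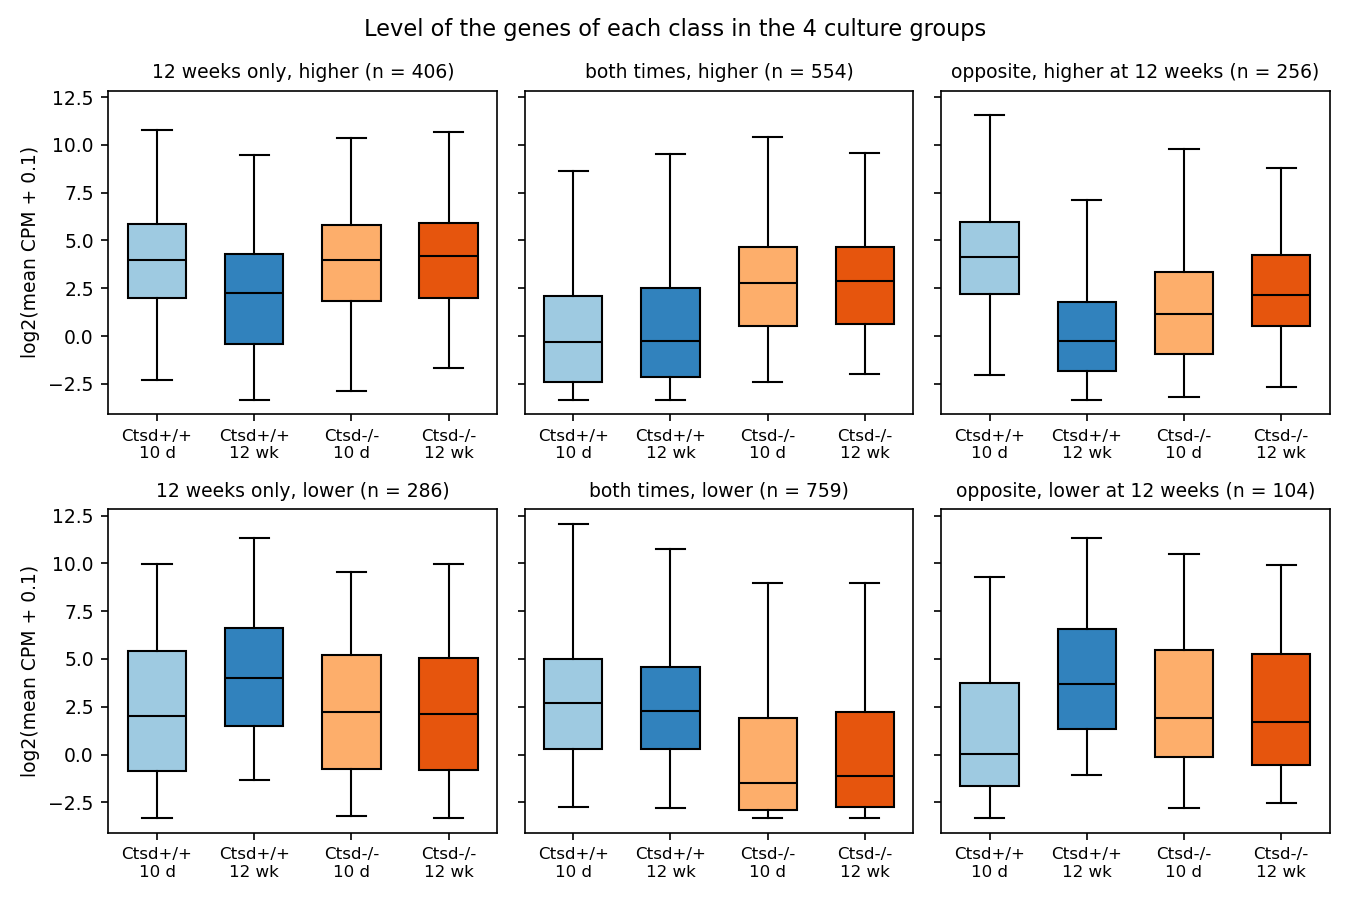
Boxes show log2(mean CPM + 0.1) of the genes of each class in the 4 culture groups (box, quartiles with the median line; whiskers, up to 1.5 times the box height; points beyond them are not drawn). Among the genes that differed at 12 weeks only, the Ctsd+/+ cells of 12 weeks have the low box where genes were higher in Ctsd-/- cells and the high box where they were lower, with medians of 2.27 and 4.01.

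The cultures were checked for markers of the cell types they could hold. Luminal epithelial markers summed to 3772 to 4037 CPM in Ctsd+/+ cells and to 5257 to 6078 CPM in Ctsd-/- cells at 12 weeks, with 0 of 9 tested markers called. Keratins summed to 4614 to 5428 and 6429 to 7939 CPM. Basal or myoepithelial markers had 77.1, 66.9 and 19.3 CPM in Ctsd+/+ cells against 4.31 to 5.79 CPM, which came almost wholly from Krt14 (log2 FC −3.78, SE 0.46, adjusted p = 6.6e-05). Of the macrophage list, Tyrobp was at 0 in all 6 cultures and 8 of 10 markers were below 1 CPM, while the sum of 55.7 to 64.7 CPM in Ctsd+/+ cells came mostly from Csf1r. All 3 tested members of this list were called, Csf1r (log2 FC −3.42) and Ptprc (−1.93, adjusted p = 0.0115) lower and Cd68 (1.54, adjusted p = 0.0424) higher in Ctsd-/- cells. Lymphocyte markers summed to at most 0.279 CPM. Fibroblast markers had 3.19, 4.18 and 8.87 CPM in the Ctsd+/+ and 100.2, 15.2 and 10.5 CPM in the Ctsd-/- cultures, with Dpt, Pi16 and Thy1 at 0 in all 6 cultures. Replicate 1 of the Ctsd-/- cells therefore stood apart in this list through Pdgfrb, which had 84.9, 3.89 and 0.968 CPM in the 3 Ctsd-/- cultures. In bulk RNA, fewer cells of a type and less RNA per cell cannot be told apart.

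Gene lists were then described by their counts and medians, beside a median log2 FC of 0.014 over all genes tested. Of the lists described in detail, some of the called members with the largest log2 FC are named, and in addition members that differed at 12 weeks only, which were picked after their values were seen. The largest shares of members that were higher at 12 weeks only were found for YAP and TEAD targets, the TGF-beta and BMP pathway, fatty acid synthesis, metalloproteases, and glycolysis and hypoxia.

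**Figure D3:**
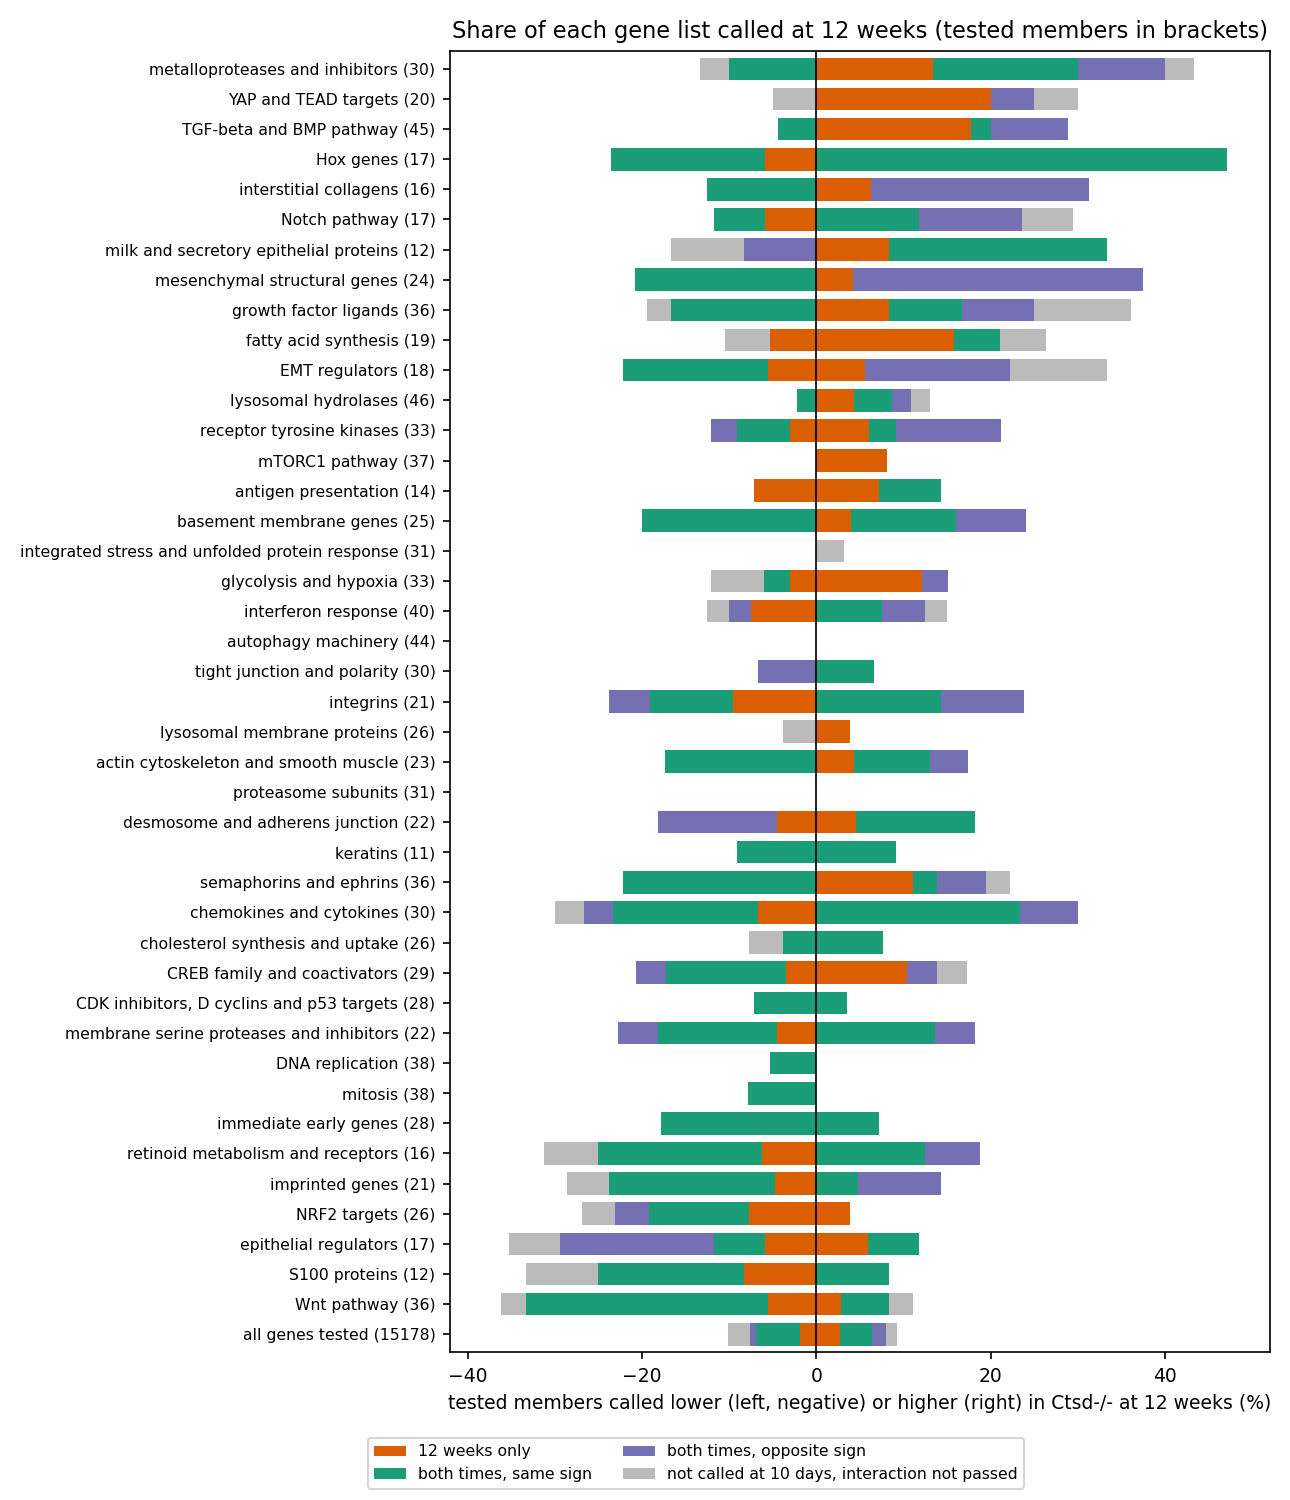
Bars show the share of the tested members of each list (number in brackets) that was called higher (right) or lower (left) in Ctsd-/- cells at 12 weeks, in percent, with colors for genes that differed at 12 weeks only, at both times with the same or the opposite sign, or without a detectable interaction; the lowest bar holds all 15178 genes. For the TGF-beta and BMP pathway 8 of 45 members were higher at 12 weeks only and 0 lower, whereas most called Hox genes differed at both times.

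In the TGF-beta and BMP pathway, 13 of 45 tested members were higher and 2 lower at 12 weeks (33.3% called), and the median log2 FC was 0.61, against −0.99 at 10 days. The ligands Tgfb1, Bmp2 and Inhbb, the receptors Bmpr2 and Eng, the secreted inhibitors Nog and Fstl3, and the target gene Id3 were higher at 12 weeks only. At 12 weeks Id3 lost its call without replicate 1 or 3 of the Ctsd+/+ or replicate 1 or 2 of the Ctsd-/- cells. Without replicate 3 of the Ctsd+/+ cells of 10 days, Id3 was also called lower at 10 days (log2 FC −1.33). The 12 week calls of Eng and Bmpr2 were lost without replicate 1 of the Ctsd-/- and of the Ctsd+/+ cells, respectively. Tgfb1, the founding ligand of the family (chr7:25687002-25705077), had 4.08, 3.92 and 6.24 CPM in the Ctsd+/+ and 24.9, 22.8 and 32.4 CPM in the Ctsd-/- cultures (log2 FC 2.49, SE 0.24, adjusted p = 1.02e-05). At 10 days the mean was 43.1 CPM in the Ctsd+/+ against 23.8 CPM in the Ctsd-/- cultures, so the difference changed with time (interaction log2 FC 3.35, adjusted p = 2.28e-05). Without replicate 3 of the Ctsd+/+ cells of 10 days, Tgfb1 was also called at 10 days, with a log2 FC of −1.04 there.

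Among the inhibitors, Fstl3, a follistatin-like protein that binds activins, had 1.92, 1.63 and 1.55 CPM in the Ctsd+/+ against 7.92, 7.67 and 13.7 CPM in the Ctsd-/- cultures (log2 FC 2.52, SE 0.27, adjusted p = 2.5e-05). Noggin (Nog), which captures BMPs, was nearly silent in Ctsd+/+ cells of 12 weeks, with 1 count in 3 cultures against 86 counts in Ctsd-/- cells. This was a ratio of 80.4 with a 95% counting interval of 14 to 3212. Inhbb, the beta B subunit of activin B, had 49.7, 48.3 and 38.8 CPM in the Ctsd+/+ against 108, 120.5 and 99.2 CPM in the Ctsd-/- cultures (log2 FC 1.26, SE 0.13, adjusted p = 2.11e-05). In each of these genes all Ctsd-/- cultures lay above all Ctsd+/+ cultures. Bmp2 rested on replicate 1 of the Ctsd-/- cells, with 5.91, 0.747 and 0.871 CPM there and 0.270 to 0.634 CPM in Ctsd+/+ cells. Without that replicate 8 members of the pathway were higher, and 5 at 12 weeks only, as also happened for the latter without replicate 1 of the Ctsd+/+ cells of 12 weeks. Bmp7, another ligand, was higher at 12 weeks (log2 FC 4.33, SE 0.70) and at 10 days. Ltbp2, which holds latent TGF-beta in the matrix, was higher at 12 weeks (log2 FC 4.69, SE 0.64) but lower at 10 days.

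Outside the cell type markers, YAP and TEAD targets were the list with the largest share of members higher at 12 weeks only, 4 of 20 (Ccn1, Axl, Amotl2 and Fjx1). This first place rests on Fjx1, whose class was not stable. At 12 weeks 6 were higher and 1 lower (35.0% called), with a median log2 FC of 0.62 against −0.55 at 10 days. To show where the TEAD motif lies, the promoters of 3 of them are printed 5′ to 3′ on the strand of the gene, from RefSeq sequence of GRCm38.p6, with the match to GGAATG or CATTCC in capitals. The windows are chr3:145649936-145650235 (minus strand) for Ccn1, chr7:25788684-25788983 (minus strand) for Axl and chr9:102717554-102717853 (plus strand) for Amotl2.
Ccn1: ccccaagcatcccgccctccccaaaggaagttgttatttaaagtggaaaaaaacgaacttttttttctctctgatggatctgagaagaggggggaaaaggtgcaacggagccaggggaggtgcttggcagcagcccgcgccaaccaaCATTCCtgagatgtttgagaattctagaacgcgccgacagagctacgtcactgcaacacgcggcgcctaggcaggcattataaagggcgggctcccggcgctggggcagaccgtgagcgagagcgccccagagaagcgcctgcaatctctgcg
Axl: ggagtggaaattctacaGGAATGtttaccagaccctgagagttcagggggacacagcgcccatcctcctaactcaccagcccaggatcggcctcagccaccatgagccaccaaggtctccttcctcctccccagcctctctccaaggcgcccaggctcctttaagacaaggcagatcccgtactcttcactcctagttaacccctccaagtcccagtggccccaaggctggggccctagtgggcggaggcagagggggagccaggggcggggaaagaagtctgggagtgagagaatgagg
Amotl2: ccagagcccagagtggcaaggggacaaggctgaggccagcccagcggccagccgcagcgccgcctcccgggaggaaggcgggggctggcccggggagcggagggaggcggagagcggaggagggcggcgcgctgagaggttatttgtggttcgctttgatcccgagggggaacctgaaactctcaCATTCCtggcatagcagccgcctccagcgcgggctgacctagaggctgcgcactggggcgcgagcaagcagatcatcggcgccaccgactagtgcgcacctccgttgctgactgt
The match began 103 bases before the start of Ccn1, 233 before that of Axl and 65 before that of Amotl2. Of 16 listed targets with a promoter in the table, 8 held the motif (50%), against 12.3% of all 10791 tested genes with a promoter. The list was chosen as targets of TEAD factors, so this share does not bear on the genotype difference. Of the members with the motif, Ccn1, Axl, Amotl2 and Ankrd1 were called at 12 weeks, and Ptpn14, Ajuba, Lats2 and Crim1 were not. The called Gadd45b and F3 held none. Among all genes higher at 12 weeks only, 12.4% of promoters held it. This is a description of letters, not of binding.

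Ccn1 (chr3:145646976-145649981), a matricellular protein that binds integrins, had 82.1, 41.0 and 80.3 CPM in the Ctsd+/+ and 284, 394 and 609 CPM in the Ctsd-/- cultures of 12 weeks (log2 FC 2.66, SE 0.31, adjusted p = 4.33e-05). Its levels at 10 days were higher, with means of 1144 and 622 CPM, and it was also called there (log2 FC −1.01) without replicate 3 of the Ctsd+/+ cells. Axl, a receptor tyrosine kinase for Gas6, had 787, 581 and 740.2 CPM in the Ctsd+/+ against 1816, 1467 and 1611 CPM in the Ctsd-/- cultures (log2 FC 1.22, SE 0.15, adjusted p = 8.2e-05). All 3 Ctsd-/- cultures lay above all Ctsd+/+ cultures for both genes. Amotl2, an angiomotin that binds YAP, stood at a log2 FC of 1.02 (SE 0.23, adjusted p = 0.00372), close to the threshold, with 63.6 to 121 CPM in the Ctsd+/+ against 182 to 220.4 CPM in Ctsd-/- cells. The number higher at 12 weeks only was 2 in place of 4 when replicate 3 of the Ctsd+/+ cells of 10 days, replicate 2 of the Ctsd+/+ cells of 12 weeks or replicate 2 of the Ctsd-/- cells of 12 weeks was left out. Fjx1 missed the interaction threshold (adjusted p 0.067 to 0.106) in most fits without 1 culture. At 10 days these were replicate 1 or 2 of the Ctsd+/+ and replicate 2 or 3 of the Ctsd-/- cells. At 12 weeks they were replicate 1 or 2 of the Ctsd+/+ and any replicate of the Ctsd-/- cells. The coagulation receptor F3 was the one target that was lower (log2 FC −1.29, SE 0.41, adjusted p = 0.0261), and its call was lost without replicate 3 of the Ctsd+/+ cells or without replicate 1 or 2 of the Ctsd-/- cells of 12 weeks.

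Metalloproteases and their inhibitors, which remodel the matrix, had 13 higher and 4 lower of 30 tested members (56.7% called, median log2 FC 0.75). Mmp19, Adamts4, Adamts7 and Adamts9 were higher at 12 weeks only. Adamts4, an aggrecan- and versican-cleaving enzyme (chr1:171250421-171260637), had 0.270, 0.320 and 0.558 CPM in the Ctsd+/+ and 9.15, 14.4 and 9.07 CPM in the Ctsd-/- cultures (log2 FC 4.81, SE 0.33, adjusted p = 1.29e-06). At 10 days all 6 cultures had 9.60 CPM or more. Adamts7, which cleaves cartilage oligomeric matrix protein, had 3.46 to 5.17 CPM against 18.5 to 22.6 CPM (log2 FC 2.37, SE 0.21, adjusted p = 6.44e-06). Its place in the class was not stable, because some fits also called Adamts7 lower at 10 days. This held without replicate 3 of the Ctsd+/+ or replicate 1 or 3 of the Ctsd-/- cells of 10 days. It held too within the samples of the most common LR number, which gave the lowest log2 FC of these fits at 10 days (−1.08). Adamts9 differed among the Ctsd-/- cultures themselves, with 83.6, 31.6 and 10.1 CPM, all above the 1.65, 3.60 and 5.60 CPM of Ctsd+/+ cells (log2 FC 3.53, SE 0.72, adjusted p = 0.00225).

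The metalloprotease list also held large differences of both times. Mmp14, the membrane-type collagenase, had 674, 541 and 570.1 CPM in Ctsd+/+ cells of 12 weeks and at most 0.463 CPM in Ctsd-/- cells (log2 FC −10.70, SE 0.31, adjusted p = 2.06e-09), and at most 0.438 CPM in Ctsd-/- cells at 10 days. Timp3, a matrix-bound inhibitor, had 2107 to 3312 CPM against 1.16 to 18.6 CPM (log2 FC −8.49, SE 1.32, adjusted p = 0.000368). Stromelysin 1 (Mmp3) was higher in Ctsd-/- cells at both times, with 6.72 to 51.9 CPM against 0.270 to 0.887 CPM at 12 weeks (log2 FC 5.48, SE 0.83).

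Growth factor ligands were called in 55.6% of 36 tested genes, 13 higher and 7 lower, with a median log2 FC of 0.92. Csf1, the macrophage colony-stimulating factor, and its receptor Csf1r differed in opposite directions at 12 weeks only. Csf1 had 54.7, 62.3 and 62.0 CPM in the Ctsd+/+ against 370.2, 320.2 and 199.8 CPM in the Ctsd-/- cultures (log2 FC 2.31, SE 0.26, adjusted p = 3.81e-05). Csf1r had 53, 54.5 and 58.2 CPM in the Ctsd+/+ against 2.66, 6.90 and 5.95 CPM in the Ctsd-/- cultures (log2 FC −3.42, SE 0.51, adjusted p = 0.000257). For both genes the 3 cultures of one genotype lay apart from those of the other, whereas at 10 days neither was called (Csf1 log2 FC −0.63, Csf1r −0.18). The whole macrophage list summed to 9.36 to 25.5 CPM in the Ctsd-/- cultures. Of its other tested members, Ptprc, which encodes the leukocyte protein CD45, was also lower at 12 weeks (log2 FC −1.93, SE 0.52, adjusted p = 0.0115). It had 0.346 to 0.634 CPM in Ctsd+/+ and at most 0.154 CPM in Ctsd-/- cells, and this call was lost without replicate 1 of the Ctsd-/- cells of 12 weeks. Unlike Csf1r, Ptprc was called higher in Ctsd-/- cells at 10 days. Cd68, a lysosomal glycoprotein, was higher in Ctsd-/- cells at 10 days and also at 12 weeks. At 12 weeks it had 1.76, 3.54 and 5.27 CPM in the Ctsd+/+ against 5.91, 6.31 and 18.6 CPM in the Ctsd-/- cultures (log2 FC 1.54, SE 0.55, adjusted p = 0.0424). That call was lost without replicate 1 or 2 of the Ctsd+/+ cells of 12 weeks, without replicate 3 of the Ctsd-/- cells of 12 weeks, and without replicate 2 of either group of 10 days. The part of macrophages in the Csf1r difference was not tested.

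The ligands Vegfc (log2 FC 1.41, SE 0.18, adjusted p = 7.77e-05) and Pdgfa (1.03, SE 0.11, adjusted p = 2.26e-05) were higher at 12 weeks only. Vegfc, the lymphatic growth factor, was also called lower at 10 days when replicate 3 of the Ctsd+/+ cells of that time was left out. Pgf, a placental relative of VEGF, was higher at both times, with 0.213 to 0.405 CPM against 21.7, 40.4 and 100 CPM at 12 weeks (log2 FC 7.33, SE 0.72, adjusted p = 1.4e-05). Igfbp3, which binds insulin-like growth factors, had 127, 284 and 331 CPM in Ctsd+/+ cells of 12 weeks and 1 count in the 3 Ctsd-/- cultures together. At 10 days its mean in Ctsd+/+ cells was 10.5 CPM.

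Guidance cues are semaphorins and ephrins with their receptors. Of 36 tested semaphorin, plexin, ephrin and neuropilin genes 8 were higher and 8 lower (44.4% called). Of these, 4 were higher at 12 weeks only (Sema3b, Sema6b, Sema6d and Efna2) and 0 lower, classes that held 2.67% and 1.88% of all genes tested. Sema6d was also called lower at 10 days with DESeq2 (log2 FC −1.17) and without a filter (−1.15). It was so too without replicate 3 of the Ctsd+/+ (−1.57) or of the Ctsd-/- cells (−1.68) of 10 days. Sema6b had 0.0811, 0.0799 and 0.203 CPM in the Ctsd+/+ against 1.13, 2.03 and 1.38 CPM in the Ctsd-/- cultures (log2 FC 3.59, SE 0.44, adjusted p = 7.06e-05). These are low levels, and with an average log2 CPM above 1.3 required the count was 2 in place of 4. Plxna2, a receptor of class 6 semaphorins, was lower at both times (log2 FC −9.80, SE 0.91), with 30.8 to 49.2 CPM in Ctsd+/+ cells and at most 0.0968 CPM in Ctsd-/- cells. Among receptor tyrosine kinases, Kdr, the main VEGF receptor, was higher at 12 weeks only (log2 FC 3.70, SE 0.70, adjusted p = 0.00142), from 0.186 to 0.431 CPM in Ctsd+/+ to 2.49 to 6.22 CPM in Ctsd-/- cells. Kdr is also 1 of the 8 endothelial markers, which summed to 0.892 to 7.55 CPM, with 6 of them under 1 CPM and Cldn5 at 0 in all 6 cultures. Of the 4 tested endothelial markers 2 were higher and 0 lower. The other was Cdh5, which encodes VE-cadherin (adjusted p = 0.000351), with 3 counts in the Ctsd+/+ and 39 in the Ctsd-/- cultures, a ratio of 12.2 with a 95% counting interval of 3.86 to 61.5, and it was higher at 10 days too. Their part in the Kdr difference was not tested.

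Of 33 tested glycolysis and hypoxia genes 5 were higher and 4 lower at 12 weeks (27.3% called, against 19.4% of all genes tested). Their median log2 FC was −0.10, and 4 were higher and 1 lower at 12 weeks only. The highest log2 FC among the list was that of Egln3, an oxygen-sensing prolyl hydroxylase that is itself induced by HIF (chr12:54178981-54203860). It had 0.0540, 0.107 and 0.0761 CPM in the Ctsd+/+ and 28.3, 17.4 and 9.0 CPM in the Ctsd-/- cultures (log2 FC 7.79, SE 0.61, adjusted p = 2.8e-06). Its means at 10 days were 3.62 and 5.49 CPM, between those extremes. Pfkfb4, which sets the level of the glycolytic activator fructose bisphosphate, had 8.86, 7.35 and 8.01 CPM in the Ctsd+/+ against 41.9, 51.3 and 59.0 CPM in the Ctsd-/- cultures (log2 FC 2.65, SE 0.17, adjusted p = 8.36e-07). The neuronal enolase Eno2 (log2 FC 4.47, SE 0.68, adjusted p = 0.000321) and the lactate dehydrogenase subunit Ldhb (1.87, SE 0.33, adjusted p = 0.000935) were higher as well. P4ha2, a collagen prolyl hydroxylase and also a HIF target, was lower, with 74.2, 118 and 102 CPM against 29.7, 27.9 and 37.4 CPM (log2 FC −1.63, SE 0.22, adjusted p = 0.00014). Each of these 5 genes stayed in its class under the alternatives that tested it and without any single culture.

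Fatty acid synthesis had 5 higher and 2 lower of 19 tested members (36.8% called, median log2 FC 0.49), of which Elovl6, Fads1 and Scd1 were higher at 12 weeks only. Elovl6 elongates palmitate to stearate and had 82.8, 46.6 and 67.9 CPM in the Ctsd+/+ against 191, 248 and 221 CPM in the Ctsd-/- cultures (log2 FC 1.74, SE 0.22, adjusted p = 8.01e-05). Fads1 and Scd1, both desaturases, had log2 FC of 1.16 (SE 0.18, adjusted p = 0.000367) and 1.14 (SE 0.27, adjusted p = 0.00533). Both were lost from this class without replicate 2 of the Ctsd+/+ cells of 12 weeks, which had the lowest level (227 CPM of Scd1 against 526 and 330.1 CPM); without it 1 member of the list was higher at 12 weeks only. Elovl7 stood at a log2 FC of −1.01 (SE 0.18, adjusted p = 0.000958) at the edge of the threshold. Cholesterol synthesis and uptake had 2 higher and 2 lower of 26 members (15.4% called) and 0 that differed at 12 weeks only.

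The mTORC1 pathway, which the title of the series names, had 3 of 37 tested members called (8.11%), against 19.4% of all genes tested. All 3 were higher and all at 12 weeks only, a class that held 2.67% of all genes tested. The median log2 FC was 0.058. Deptor, an inhibitory partner of mTOR, had 1.16, 1.55 and 1.42 CPM in the Ctsd+/+ against 5.12, 5.38 and 3.99 CPM in the Ctsd-/- cultures (log2 FC 1.81, SE 0.35, adjusted p = 0.00156). Castor1, the arginine sensor that restrains mTORC1, had 3.67 to 6.19 CPM against 7.90 to 12.1 CPM (log2 FC 1.05, SE 0.22, adjusted p = 0.0026). Rragb, a Rag GTPase that recruits mTORC1 to the lysosome, stood at a log2 FC of 1.22 (SE 0.33, adjusted p = 0.0117). Rragb missed the interaction threshold in most fits without 1 culture. At 10 days these were replicate 1 of the Ctsd+/+ and replicate 2 or 3 of the Ctsd-/- cells. At 12 weeks they were replicate 1 or 3 of either genotype. The count for 12 weeks only was 1, that of Deptor, without replicate 1 of the Ctsd+/+ cells or without replicate 3 of the Ctsd-/- cells of 12 weeks.

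The list of CREB family members, coactivators and the cAMP machinery had 5 higher and 6 lower of 29 tested members (37.9% called, median log2 FC −0.22). Creb1 itself stood at a log2 FC of 0.21 (SE 0.13, adjusted p = 0.251). Prkacb, a catalytic subunit of the cAMP-dependent protein kinase, had 37.8, 43.7 and 38.3 CPM in the Ctsd+/+ against 84.8, 85.8 and 81.6 CPM in the Ctsd-/- cultures (log2 FC 1.07, SE 0.10, adjusted p = 1.13e-05). The regulatory subunit Prkar2b (log2 FC 1.57, SE 0.30, adjusted p = 0.0014) and the anchoring protein Akap12 (1.59, SE 0.16, adjusted p = 1.5e-05) were also higher at 12 weeks only. Sik1, a salt-inducible kinase that holds back the CREB coactivators, was lower at 12 weeks only (log2 FC −1.08, SE 0.22, adjusted p = 0.00256). Its call was lost without replicate 2 of the Ctsd+/+ cells of 12 weeks (log2 FC −0.81). Adcy1, an adenylate cyclase, and Pde4d, a cAMP phosphodiesterase, were lower at both times (log2 FC −6.29 and −2.05 at 12 weeks). The palindrome TGACGTCA, the full CREB site, was found in 0.977% of promoters of genes higher at 12 weeks only, 1.49% of those lower at 12 weeks only and 3.26% of all tested genes with a promoter.

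Of 46 lysosomal hydrolases 6 were higher and 1 lower (15.2% called, against 19.4% of all genes tested, median log2 FC 0.30), and of 26 lysosomal membrane proteins 1 was higher and 1 lower (7.69%). Arsa, which degrades sulfatides, and Scpep1, a serine carboxypeptidase, were higher at 12 weeks only. Arsa had 15.6, 20.6 and 24.8 CPM in the Ctsd+/+ against 48.2, 49.8 and 56.8 CPM in the Ctsd-/- cultures (log2 FC 1.34, SE 0.23, adjusted p = 0.00078). Npc1, the cholesterol exporter of the lysosomal membrane, stood at a log2 FC of 1.53 (SE 0.21, adjusted p = 0.000133), whereas the cystine exporter Ctns was lower (−2.04, SE 0.44, adjusted p = 0.00324) with no detectable interaction. Cathepsin Z (Ctsz) was higher at 12 weeks (log2 FC 1.51, SE 0.19) and lower at 10 days. Scpep1 was not called without replicate 3 of the Ctsd-/- cells of 12 weeks, and 3 hydrolases were higher then. Of 44 genes of the autophagy machinery 0 were called (median log2 FC 0.11), and of 31 proteasome subunits 0 were called. At 12 weeks Sqstm1, which encodes the autophagy receptor p62, had a log2 FC of 0.31 and Map1lc3a one of 0.29. Lamp1 (0.09), Ctsl (0.51, adjusted p = 0.0958) and Ctsb (−0.32) were not called either.

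Genes that were lower in Ctsd-/- cells at 12 weeks only included the receptor Notch3 and the Wnt ligands Wnt10a and Wnt9a. Notch3 (chr17:32120820-32166852), a receptor of the Notch family, had 567, 421 and 384 CPM in the Ctsd+/+ and 47.1, 43.9 and 36.3 CPM in the Ctsd-/- cultures (log2 FC −3.43, SE 0.34, adjusted p = 1.35e-05). The mean at 10 days was 65.6 CPM in the Ctsd+/+ against 38.1 CPM in the Ctsd-/- cultures, and without replicate 1 of the Ctsd-/- cells of 10 days Notch3 was called there too (log2 FC −1.18). Nrarp, a feedback inhibitor of Notch, was higher at both times (log2 FC 2.63, SE 0.25 at 12 weeks), and of 17 tested Notch pathway genes 5 were higher and 2 lower (41.2% called).

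Of the Wnt pathway, 13 of 36 tested members were lower and 4 higher (47.2% called, median log2 FC −0.60), and 10 of the lower ones were lower at both times. Wnt10a had 127, 71.9 and 46.6 CPM in the Ctsd+/+ against 14, 7.44 and 6.10 CPM in the Ctsd-/- cultures at 12 weeks (log2 FC −3.16, SE 0.49, adjusted p = 0.00036). Wnt9a had 72.4, 76.9 and 57.4 CPM against 21.7, 20.9 and 25.5 CPM (log2 FC −1.60, SE 0.30, adjusted p = 0.00138). Neither ligand was called at 10 days, when their log2 FC were 0.50 and 0.41. Axin2, the feedback target of Wnt signaling through beta-catenin, was lower at both times, with 21.6, 38.9 and 10.1 CPM against 3.45, 0.669 and 0.266 CPM at 12 weeks (log2 FC −4.00, SE 0.99, adjusted p = 0.00707). The noncanonical receptor Ror2 had 210 counts in the Ctsd+/+ cultures of 12 weeks and 1 in the Ctsd-/- cultures.

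**Figure D4:**
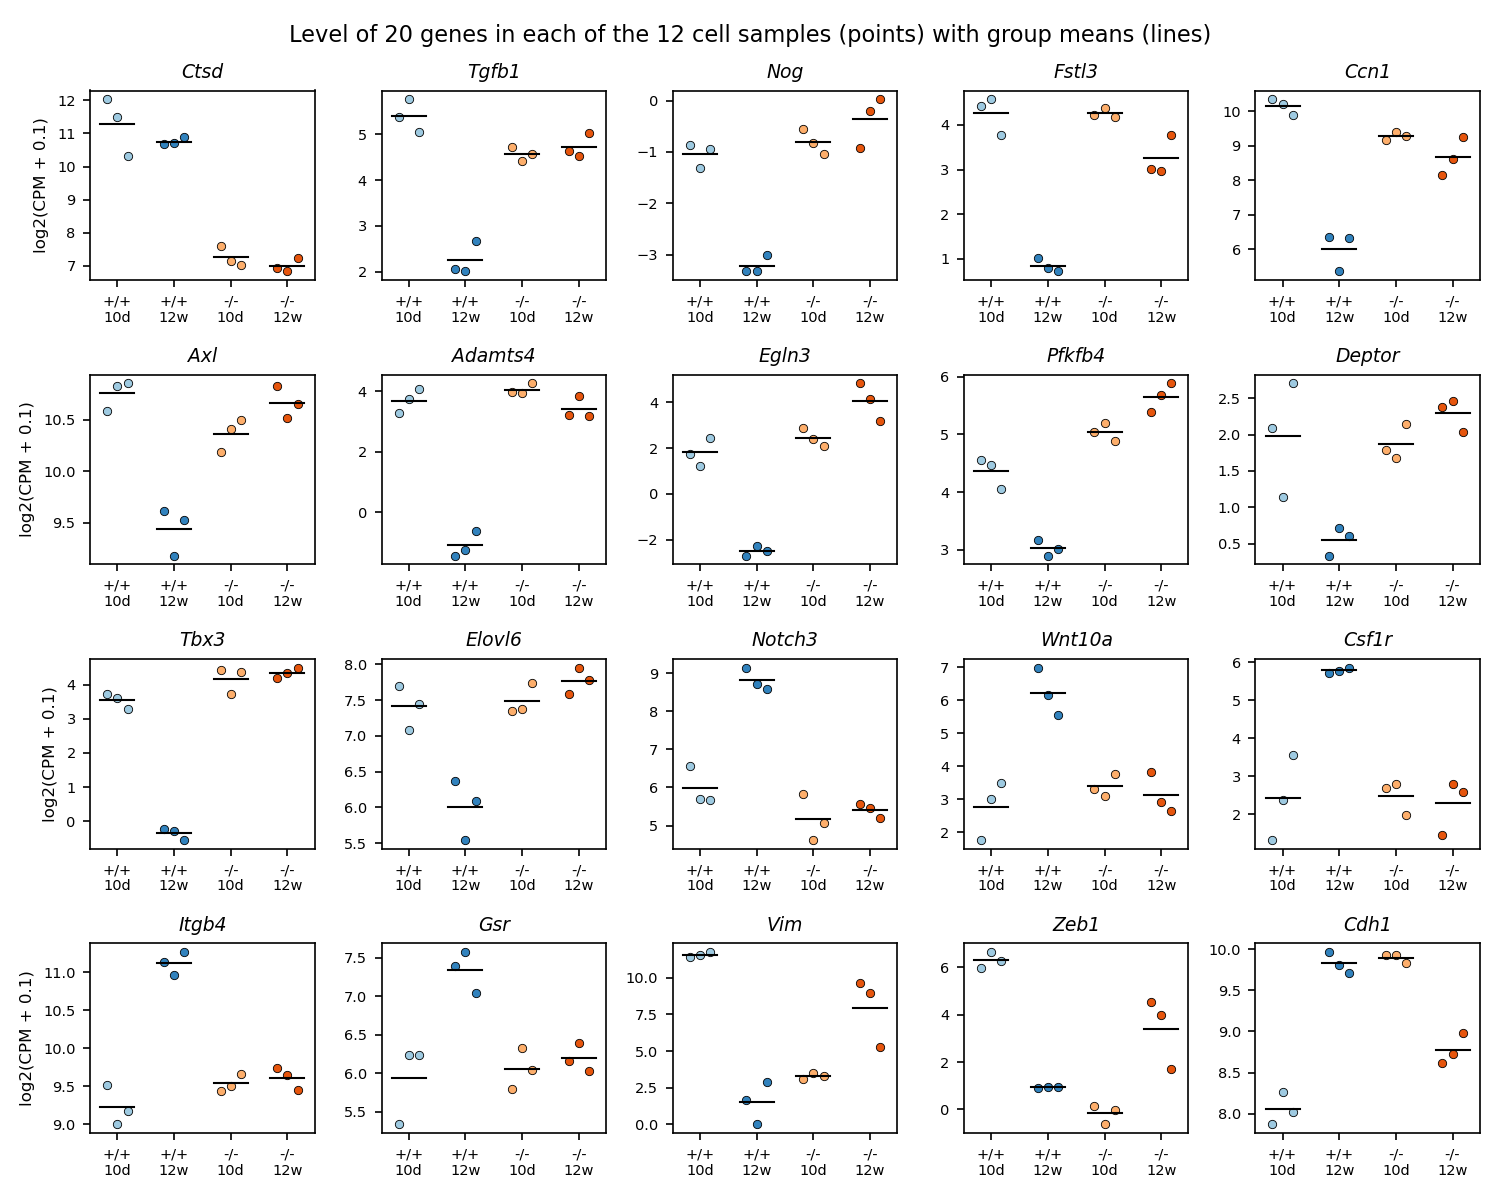
Points show log2(CPM + 0.1) of 20 genes in each of the 12 cell samples, by genotype (+/+ or -/-) and culture time (10 days or 12 weeks); lines are group means and each panel has its own y axis. Nog, Fstl3, Adamts4, Egln3 and Tbx3 are lowest in the Ctsd+/+ cells of 12 weeks, Notch3, Wnt10a, Csf1r and Itgb4 are highest there, and Vim has 1 of 3 Ctsd-/- cultures of 12 weeks far below the other cultures of that group.

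Some genes of stratified and barrier epithelium, picked after their values were seen and not a list, were lower at 12 weeks only. Grhl3, a transcription factor of the epidermal barrier, had 3.19, 6.69 and 3.83 CPM in the Ctsd+/+ against 0.168, 0.309 and 0.218 CPM in the Ctsd-/- cultures (log2 FC −4.29, SE 0.50, adjusted p = 4.69e-05). Dsg3, a desmosomal cadherin of stratified epithelium, had 16.3, 17.0 and 17.9 CPM against 1.53, 1.85 and 1.84 CPM (log2 FC −3.29, SE 0.53, adjusted p = 0.00049). Tgm1, which cross-links the cornified envelope, had 7.46, 10.4 and 8.39 CPM against 0.503, 0.772 and 0.798 CPM (log2 FC −3.66, SE 0.30, adjusted p = 4.27e-06). In all 3 genes the Ctsd+/+ cultures of 12 weeks lay above every other culture of the 4 groups. Pof1b, an actin-binding protein of epithelial junctions (log2 FC −3.72, SE 0.40), and the kallikrein Klk10 (−2.63, SE 0.57) were lower as well. Dsg3 and Pof1b were not in the class without replicate 1 of the Ctsd+/+ cells of 10 days, and Klk10 was not without replicate 2 of the Ctsd-/- cells of 10 days or replicate 1 of either group of 12 weeks. Within the samples of the most common LR number Dsg3, Pof1b and Grhl3 were not in the class either. Cdsn, which encodes the corneodesmosomal protein of the epidermis, went the other way, with 0.432, 0.639 and 0.127 CPM in the Ctsd+/+ against 4.02, 5.05 and 4.93 CPM in the Ctsd-/- cultures (log2 FC 3.54, SE 0.81, adjusted p = 0.00452). It was higher at 12 weeks only (interaction log2 FC 5.11) in the main fit. With DESeq2 and without a filter on low counts, Cdsn was also called lower at 10 days (log2 FC −1.585 and −1.56). The same held without replicate 2 of the Ctsd+/+ cells of 10 days (log2 FC −2.06). Counted regardless of strand, its log2 FC at 12 weeks was 1.38, and its interaction (log2 FC 1.68) missed the threshold. Itgb4, the integrin subunit of hemidesmosomes, was lower at 12 weeks only with 2255, 1996 and 2467 CPM in the Ctsd+/+ against 853, 805 and 701 CPM in the Ctsd-/- cultures (log2 FC −1.51, SE 0.15, adjusted p = 1.73e-05).

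Il18r1, the interleukin 18 receptor, had 78.8, 54.7 and 74.5 CPM in the Ctsd+/+ against 3.54, 3.89 and 5.83 CPM in the Ctsd-/- cultures (log2 FC −3.97, SE 0.24, adjusted p = 4.14e-07). Of 14 tested antigen presentation genes 2 were higher and 1 lower (21.4% called, median log2 FC 0.094), with 1 higher and 1 lower at 12 weeks only. The lower one was the nonclassical class I gene H2-T23 (log2 FC −1.94, SE 0.31, adjusted p = 0.000431). The higher one was B2m, the beta 2 microglobulin light chain of class I molecules, with 91.6, 97.4 and 139 CPM in the Ctsd+/+ against 269, 303 and 404 CPM in the Ctsd-/- cultures (log2 FC 1.57, SE 0.22, adjusted p = 0.000204). Its interaction missed the threshold in 6 of the fits without 1 culture: replicate 1 of the Ctsd+/+ cells of 10 days, replicate 2 or 3 of the Ctsd-/- cells of 10 days, replicate 1 or 2 of the Ctsd+/+ cells and replicate 3 of the Ctsd-/- cells of 12 weeks. Nlrc5, the transactivator of class I genes, was higher at both times (log2 FC 2.60, SE 0.67, adjusted p = 0.00895 at 12 weeks). Of 40 tested interferon response genes 6 were higher and 5 lower (27.5% called), and 3 were lower at 12 weeks only: Ddx58, which encodes the RNA sensor RIG-I (log2 FC −1.43, SE 0.17, adjusted p = 5.17e-05), Rsad2 (log2 FC −2.46, SE 0.59, adjusted p = 0.00631) and Oas1g. Rsad2 missed the interaction threshold with voom (adjusted p = 0.0765), within the samples of the most common LR number (0.219) and without replicate 2 or 3 of the Ctsd+/+ cells of 10 days, replicate 1 of the Ctsd-/- cells of 10 days, replicate 1 or 3 of the Ctsd+/+ cells of 12 weeks or any replicate of the Ctsd-/- cells of 12 weeks. Oas1g had 208 counts in Ctsd+/+ and 3 in Ctsd-/- cultures, a ratio of 74.2 with a 95% counting interval of 25 to 363, and it has close paralogs, so its counts are uncertain. The direction of the interferon list was not stable: 2 were higher without replicate 1 of either group of 12 weeks, and 3 without replicate 2 of the Ctsd+/+ cells of 12 weeks. Without replicate 1 of the Ctsd-/- cells of 10 days 1 interferon member was lower at 12 weeks only. Within the 8 samples that share the most common LR number of the labels, 15 were higher.

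Of 26 tested NRF2 targets 7 were lower and 1 higher (30.8% called, median log2 FC −0.090). Gsr, glutathione reductase, had 168, 191 and 132 CPM in the Ctsd+/+ against 71.2, 84.0 and 65.2 CPM in the Ctsd-/- cultures (log2 FC −1.16, SE 0.23, adjusted p = 0.00206). G6pdx, which supplies its NADPH through the pentose phosphate pathway, had 355, 415 and 419 CPM against 186, 183 and 199.8 CPM (log2 FC −1.06, SE 0.15, adjusted p = 0.000177). Both were lower at 12 weeks only, and their levels at 10 days lay between 40.3 and 79.9 CPM for Gsr and between 148 and 246 CPM for G6pdx in all 6 cultures. Aldh3a1, an aldehyde dehydrogenase, was lower at both times (log2 FC −4.37, SE 0.95 at 12 weeks), with 32.9, 7.06 and 0.629 CPM in the 3 Ctsd-/- cultures. Without replicate 1 of the Ctsd+/+ cells of 12 weeks 2 targets were higher, as also without replicate 1 of the Ctsd+/+ cells of 10 days.

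Chemokines and cytokines were called in 60.0% of 30 tested genes, 9 higher and 9 lower, and 12 of the 18 had the same sign at 10 days (7 higher, 5 lower), while 2 were lower and 0 higher at 12 weeks only. Cxcl5, a neutrophil attractant, had 2.30, 3.17 and 4.11 CPM in the Ctsd+/+ against at most 0.0726 CPM in the Ctsd-/- cultures (log2 FC −6.47, SE 0.83, adjusted p = 9.74e-05). Ccl2, a monocyte attractant, had 0 counts in the Ctsd+/+ cultures of 12 weeks and 28 in the Ctsd-/- cultures. This was at least 8.72-fold higher against a floor of 3 counts over the 3 cultures, but Ccl2 was lower in Ctsd-/- cells at 10 days. The Ccl2 call was lost without any one of the 3 Ctsd+/+ cultures or replicate 1 or 2 of the Ctsd-/- cultures of 12 weeks. Without replicate 2 of the Ctsd-/- cells of 12 weeks 5 chemokine and cytokine genes were higher.

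Of 21 tested integrins 5 were higher and 5 lower (47.6% called), of which 2 were lower at 12 weeks only. Itgb3, a receptor subunit for vitronectin, had 0 counts in the Ctsd+/+ cultures of 12 weeks and 153 in the Ctsd-/- cultures, at least 47.7-fold higher, after 12.4 to 33.7 CPM in Ctsd+/+ cells and 1.12 to 1.70 CPM in Ctsd-/- cells of 10 days. Without replicate 2 of the Ctsd+/+ cells of 12 weeks 3 integrins were higher. Of 28 tested immediate early genes 2 were higher and 5 lower (25% called), all with the same sign at 10 days. Among them were the transcription factor Egr3 (log2 FC −4.29, SE 0.74) and the nuclear receptor Nr4a3, with 105 counts in the Ctsd+/+ and 2 in the Ctsd-/- cultures. Of 12 tested S100 genes 1 was higher and 4 lower (41.7% called), with S100a4 the lowest (log2 FC −4.24). Of 21 tested imprinted genes 3 were higher and 6 lower (42.9% called), against 19.4% of all genes tested. Among the latter, Kcnq1ot1 had 361 counts in the Ctsd+/+ and 0 in the Ctsd-/- cultures.

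Outside these pathways, Tbx3, a T-box repressor of mammary progenitors (chr5:119670669-119684724), had 0.757, 0.719 and 0.583 CPM in the Ctsd+/+ and 18.1, 20.3 and 22.5 CPM in the Ctsd-/- cultures of 12 weeks (log2 FC 4.88, SE 0.24, adjusted p = 1.46e-07). At 10 days it had 9.63 to 13.1 CPM and 13.3 to 21.3 CPM. Cpeb1, which binds the cytoplasmic polyadenylation element of dormant mRNAs, had 0.324, 0.40 and 0.913 CPM against 14.8, 13.3 and 14.3 CPM (log2 FC 4.68, SE 0.43, adjusted p = 8.44e-06). Gsdme, an effector of pyroptosis, stood at a log2 FC of 3.90 (SE 0.47, adjusted p = 6.53e-05). Xdh, the xanthine dehydrogenase of milk fat globules, had 24.9, 44.0 and 41.6 CPM against 129, 97.5 and 114 CPM (log2 FC 1.62, SE 0.36, adjusted p = 0.00384). Padi2, a protein arginine deiminase, had 6.81, 10.7 and 21.8 CPM in the Ctsd+/+ against 0.575, 0.953 and 0.387 CPM in the Ctsd-/- cultures (log2 FC −4.36, SE 0.68, adjusted p = 0.000371). Stra6, the retinol uptake receptor, had 1173 counts in Ctsd+/+ and 1 in Ctsd-/- cultures, a ratio of 1255 with a 95% counting interval of 225 to 49606. It did not pass the interaction test without replicate 1 of the Ctsd-/- cells of 10 days or within the samples of the most common LR number. Stra6 had at most 0.153 CPM in each of the 6 cultures of 10 days.

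Of 24 tested mesenchymal structural genes 20 were lower in Ctsd-/- cells at 10 days (median log2 FC −4.22), while at 12 weeks 9 were higher and 5 lower (58.3% called, median 1.35). Of the 14 called at 12 weeks, 8 were higher there and lower at 10 days, 5 were lower at both times, and 1, Ccn1, was higher at 12 weeks only. Vimentin (Vim, chr2:13573927-13582826) had 3.03, 0.906 and 7.17 CPM in the Ctsd+/+ and 809.8, 506 and 38.1 CPM in the Ctsd-/- cultures of 12 weeks (log2 FC 6.92, SE 1.02, adjusted p = 0.000253). At 10 days it had 2749.9, 2967 and 3481 CPM in the Ctsd+/+ and 8.61, 11.1 and 9.76 CPM in the Ctsd-/- cultures, so that the genotypes had changed places (interaction log2 FC 15.21, SE 1.48, adjusted p = 2.51e-05). Replicate 3 of the Ctsd-/- cells had far less Vim than the others, yet above every Ctsd+/+ culture. With a log2 FC of 2.04 (SE 0.37, adjusted p = 0.00102), the matrix glycoprotein Sparc had 193, 223 and 72.2 CPM against 32.6 to 49.3 CPM, compared with 3102 to 5502 CPM in Ctsd+/+ cells of 10 days.

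The members that were lower at both times were Tnc, Lox, Vcan, Fbn1 and Fn1. The matrix glycoprotein tenascin C (Tnc) had the lowest log2 FC of the list, −6.76 (SE 0.67, adjusted p = 1.47e-05). The proteoglycan versican (Vcan) had 51.0, 66.3 and 93.7 CPM in the Ctsd+/+ against 2.30, 1.03 and 1.09 CPM in the Ctsd-/- cultures of 12 weeks (log2 FC −5.57, SE 0.44, adjusted p = 3.09e-06). Lox, a collagen cross-linking oxidase, had 66 counts in the Ctsd+/+ and 1 in the Ctsd-/- cultures of 12 weeks, a ratio of 70.6 with a 95% counting interval of 12.2 to 2831, after 463 to 1320.0 CPM in Ctsd+/+ cells of 10 days. Its call at 12 weeks was lost without replicate 3 of the Ctsd+/+ cells, with voom and within the samples of the most common LR number. Without that replicate, as within the samples of the most common LR number, 3 members of the list were lower in place of 5, and voom called 5 higher in place of 9.

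Of 18 tested EMT regulators 6 were higher and 4 lower at 12 weeks (55.6% called, median log2 FC −0.087, against −1.91 at 10 days). Of these, 3 were higher at 12 weeks and lower at 10 days (Zeb1, Zeb2 and Lef1), 3 were lower at both times, Tbx3 was higher and Snai3 lower at 12 weeks only, and 2 had no detectable interaction. Zeb1, which represses E-cadherin, had 1.76, 1.81 and 1.85 CPM in the Ctsd+/+ against 23.1, 15.9 and 3.14 CPM in the Ctsd-/- cultures of 12 weeks (log2 FC 2.95, SE 0.55, adjusted p = 0.00118). Its relative Zeb2 had 2.03, 1.57 and 1.32 CPM against 37.5, 27.5 and 8.42 CPM (log2 FC 3.90, SE 0.45, adjusted p = 4.25e-05). At 10 days both were lower in Ctsd-/- cells (log2 FC −6.62 and −2.41). Replicate 3 of the Ctsd-/- cells was again the lowest of its group, and the fibroblast marker sums of 100.2, 15.2 and 10.5 CPM given above followed the same order of cultures; their part was not tested. Cdh2, which encodes N-cadherin, was not called (log2 FC −0.45). Of the factors that were lower at both times, Twist2 had 1089 counts in Ctsd+/+ and 0 in Ctsd-/- cultures of 12 weeks. This was at least 388-fold lower against a floor of 3 counts over the 3 cultures. The others were Snai1 (log2 FC −2.12) and Foxc2 (−2.26).

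Of 22 tested desmosome and adherens junction genes 4 were higher and 4 lower at 12 weeks (36.4% called, median log2 FC 0.11), against 10 higher at 10 days. Of these, 3 were lower at 12 weeks and higher at 10 days (Cdh1, Dsp and Evpl), 3 were higher at both times, and Nectin3 was higher and Dsg3 lower at 12 weeks only. Cdh1, which encodes E-cadherin (chr8:106603351-106670246), had 1002, 896 and 841 CPM in the Ctsd+/+ against 392, 423 and 503 CPM in the Ctsd-/- cultures of 12 weeks (log2 FC −1.06, SE 0.14, adjusted p = 9.37e-05). At 10 days it was higher in Ctsd-/- cells (log2 FC 1.84). The log2 FC of Cdh1 fell inside the threshold of 1 without replicate 1 of either group of 12 weeks. Desmoplakin (Dsp) had 587, 702 and 507 CPM against 138, 161 and 194 CPM at 12 weeks (log2 FC −1.86, SE 0.15, adjusted p = 3.54e-06), and Esrp1, a splicing factor of epithelial isoforms, 293, 283 and 233 CPM against 99.2, 111 and 132 CPM (log2 FC −1.24, SE 0.13, adjusted p = 1.73e-05). Of 17 tested epithelial regulators 6 were lower and 2 higher at 12 weeks (47.1% called, median log2 FC −0.80), against 11 higher at 10 days, and 3 of the lower ones (Esrp1, Elf3 and Ovol2) were higher at 10 days. Tight junction and polarity genes had 2 higher and 2 lower of 30 (13.3%), against 22 higher at 10 days. The 2 that were higher were so at both times, and the 2 that were lower had been higher at 10 days.

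Other junction genes were higher in Ctsd-/- cells at both times. Claudin 1 (Cldn1), a tight junction protein, had 1.59, 1.65 and 5.27 CPM in the Ctsd+/+ against 81.8, 79.2 and 98.4 CPM in the Ctsd-/- cultures of 12 weeks (log2 FC 4.92, SE 0.60, adjusted p = 6.5e-05). Nectin1, an adhesion molecule of adherens junctions, had 11.1, 13 and 11.6 CPM against 62.3, 71.2 and 68.6 CPM (log2 FC 2.50, SE 0.16, adjusted p = 8.36e-07). Of 11 tested keratins 1 was higher and 1 lower, both with the same sign at 10 days. Krt20, the higher one, had 10.2, 10.3 and 16.1 CPM in the Ctsd-/- cultures and 3 counts in the Ctsd+/+ cultures of 12 weeks, a ratio of 465 with a 95% counting interval of 159 to 2257. Keratin 8 and 18 were not called at 12 weeks (log2 FC 0.58 and 0.78), nor was Epcam (0.04).

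Differences that were present at both times included some of the largest fold changes. Hox genes were called in 70.6% of 17 tested members, 8 higher and 4 lower, and 11 of these 12 had the same sign at 10 days. Genes of the Hoxb cluster on chromosome 11 were high in Ctsd-/- cells: Hoxb5 had 32.1, 27.3 and 35.5 CPM there and at most 0.0540 CPM in Ctsd+/+ cells (log2 FC 9.39, SE 0.26, adjusted p = 1.59e-08). Hoxb2 had 19.5, 14.6 and 16.2 CPM against 0 counts, at least 638-fold higher. In contrast, Hoxa10 had 607 counts in Ctsd+/+ cultures and 0 in Ctsd-/- cultures, at least 216-fold lower. The collagen IV chains Col4a1 and Col4a2, which share a promoter region on chromosome 8, had 352 to 445 and 409 to 564 CPM in Ctsd+/+ cells and at most 0.154 and 0.314 CPM in Ctsd-/- cells (log2 FC −11.48, SE 0.37, and −11.11, SE 0.41). Ptgs2, the inducible prostaglandin synthase, had 393, 236 and 594 CPM against at most 0.168 CPM (log2 FC −12.22, SE 0.75, adjusted p = 5.53e-07), and Emb, the basigin relative embigin, had 8145 counts against 1.

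Cdkn2b, which encodes the cell cycle inhibitor p15, was at 0 counts in every Ctsd+/+ culture of both times. In Ctsd-/- cells it had 30.2, 27.7 and 30.9 CPM at 12 weeks and 53.5 to 58.7 CPM at 10 days, at least 1126-fold higher at 12 weeks. The adjacent Cdkn2a was not called at 12 weeks (log2 FC 0.87, SE 0.35, adjusted p = 0.0667), with 9.19 to 10.8 CPM in the Ctsd+/+ against 17.9 to 18.5 CPM in Ctsd-/- cells, although it was higher in Ctsd-/- cells at 10 days (log2 FC 3.63). Genes of the neighborhood were then read, a choice made after the values were seen. Focad had 0.811, 1.09 and 1.93 CPM in the Ctsd+/+ and 20.6, 20.7 and 20.8 CPM in the Ctsd-/- cultures of 12 weeks (log2 FC 4.01, SE 0.24, adjusted p = 4.76e-07), and 27.8 to 33.0 CPM in Ctsd+/+ cells of 10 days. Its neighbors Mllt3 and Hacd4 were low there too. Mllt3 had 2.27, 2.32 and 1.88 CPM in the Ctsd+/+ and 14.2, 13 and 12.1 CPM in the Ctsd-/- cultures of 12 weeks (log2 FC 2.60, SE 0.18, adjusted p = 1.1e-06), and 29.6 to 44.6 CPM in Ctsd+/+ cells of 10 days. Hacd4 had 0.297 to 0.837 CPM in Ctsd+/+ cells of 12 weeks and 14.3 to 29.7 CPM at 10 days, but did not differ detectably from Ctsd-/- cells at 12 weeks (log2 FC 1.00, SE 0.78, adjusted p = 0.334). Mtap, between Focad and Cdkn2b, had 156 to 228 CPM in Ctsd+/+ cells of 10 days and 34.1 to 43.0 CPM at 12 weeks, with a log2 FC of 0.74 (SE 0.17, adjusted p = 0.00478) between the genotypes. Klhl9, between Hacd4 and Mtap, had 66.5 to 91.7 CPM in Ctsd+/+ cells of 10 days and 60.5 to 69.6 CPM at 12 weeks, with a log2 FC of 0.07 between the genotypes. Of the cell cycle genes, 0 were higher and 2 lower of 38 DNA replication genes (5.26%), and 0 were higher and 3 lower of 38 mitosis genes (7.89%). Cdkn1a, which encodes p21, had a log2 FC of −0.53.

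Families formed by the letters of gene symbols, with at least 6 tested members, gave the largest shares higher at 12 weeks only for Mgat (2 of 7), Camk and Pip (2 of 8 each), Tnfrsf (3 of 14) and Adamts (3 of 15). The Wnt genes had the largest share lower at 12 weeks only, followed by the Dcaf genes (3 of 14). These families are small, and the counts are a description.

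The positions of the genes were examined by chromosome. On chromosome 4, Ctsd-/- cultures had 46 higher and 254 lower of 963 tested genes (31.2% called), with a median log2 FC of −0.61 at 12 weeks and −0.58 at 10 days. On chromosome 14, 30 were higher and 127 lower of 495 (31.7% called), with medians of −0.54 and −0.55. Both were thus shifted alike at the 2 times. On chromosome 2 the median differed between the times: 190 of 1197 genes were higher and 59 lower (20.8% called), with a median of 0.38 at 12 weeks and −0.029 at 10 days, and 65 genes were higher at 12 weeks only against 7 lower. Chromosome 18 had 60 higher and 21 lower of 394 genes (20.6% called), 77.7% of its genes had a log2 FC above 0, and the median was 0.36 at 12 weeks and 0.10 at 10 days. Relative to the mean of the 12 samples its genes lay at −0.25, −0.30 and −0.26 (median log2 level) in the Ctsd+/+ cultures of 12 weeks and between −0.017 and 0.15 in the others. Chromosome 19 had medians of 0.097 at 12 weeks and 0.61 at 10 days.

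**Figure D5:**
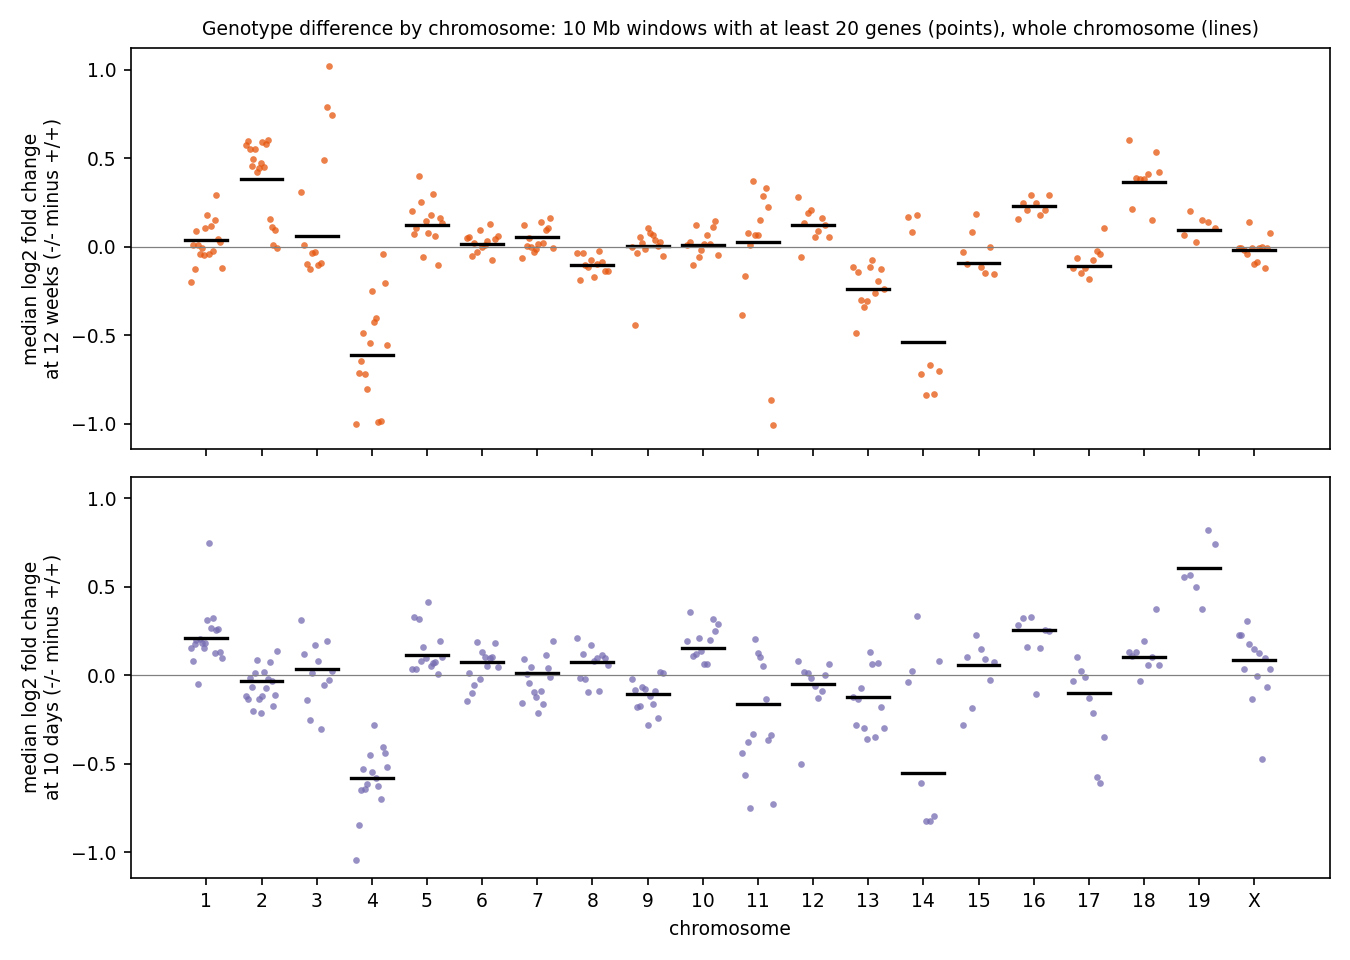
Points show the median log2 fold change between Ctsd-/- and Ctsd+/+ cells of the tested genes in each 10 Mb window with at least 20 genes, in the order of their position within each chromosome, at 12 weeks (top) and at 10 days (bottom); lines show the median of the whole chromosome. Chromosomes 4 and 14 lie below 0 at both times, 13 windows of chromosome 2 lie above 0.4 at 12 weeks, and chromosome 19 lies above 0 mainly at 10 days.

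The shift of chromosome 2 lay in its first 140 Mb, a boundary set after the values were seen. Of 834 tested genes there, 80.3% had a log2 FC above 0 at 12 weeks, with a median of 0.52 against −0.034 at 10 days, and 60 were higher at 12 weeks only against 5 lower. The remaining 363 genes from 140 Mb onward had a median of 0.070. This stretch held 14.8% of the genes that were higher at 12 weeks only, against 5.52% of all genes tested and 1.75% of those lower at 12 weeks only. Relative to the mean of the 12 samples its genes lay at −0.42, −0.45 and −0.31 (median log2 level) in the Ctsd+/+ cultures of 12 weeks and between 0.092 and 0.20 in the other 9 cultures. Vim and Zeb2 lie in it, as do Fjx1, Eng and Bmp2 of the lists above. Of 237 windows of 10 Mb with at least 20 genes, 21 had a median above 0.4 and 21 one below −0.4. The former included 4 windows of chromosome 18, and 4 windows of chromosome 3 between 120 and 160 Mb, where the median reached 1.02, and Ccn1, Elovl6 and Prkacb lie there. The latter included 2 windows of chromosome 11 between 110 and 130 Mb, where Itgb4 lies, with a lowest median of −1.01. Whether gene dose differed between the lines in these stretches was not tested.

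Other motifs were counted in the promoters of each class, with no test. CACGTG, the E-box bound by factors of the MiT and Myc families, was in 7.49% of 307 promoters of genes higher at 12 weeks only, 6.93% of 202 lower at 12 weeks only and 10.1% of all. CAGGTG or CACCTG, the letters bound by Zeb and Snail factors, were in 14%, 23.8% and 17.8%. TGACTCA or TGAGTCA, the AP-1 site, was in 3.58%, 4.46% and 3.88%. GGAATG or CATTCC was in 12.4%, 11.4% and 12.3%. Both strands of the 300 bases around each start were searched, and a missing match says only that these letters are not in that window.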

How the data were processed

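The authors deposited raw read counts per gene for each sample. Per the methods, Illumina reads were trimmed with Trimmomatic and mapped to GRCm38/mm10 with STAR; the annotation release is not given in the sources used here. The column of the opposite strand was used (97.1 to 97.3% of stranded gene counts), and rows that name no gene were left out: at 12 weeks multimapping reads were 5.31 to 7.05%, reads without a feature 4.55 to 6.07% and ambiguous reads 1.11 to 1.25%. Symbols came from GENCODE M21 for 45143 of 45706 identifiers. Across the 12 cell samples, 33622831 to 40239762 reads were counted on genes.

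Genes passing filterByExpr (15178) were fitted over all 12 cell samples with TMM factors and the quasi-likelihood test of edgeR 4.0.16 (R 4.3.3), with Benjamini-Hochberg adjustment over all tested genes; prints of an adjusted p refer to this fit. The code was tested on simulated data. Replicates of a group differed by more than sampling noise (chi-square per gene 31.0 to 81.0). The members and lists were chosen with earlier results of these data known. Those that could be named were, per list, up to 4 called, non-overlapping members with the largest log2 FC, the 15 highest and lowest genes by log2 FC and by interaction among those differing at 12 weeks only with an average log2 CPM above 1.3, the genes named by the study, and list members seen to differ at 12 weeks only; not all are printed, and Cdsn, Mllt3 and Hacd4 were among genes added after their values were seen. A total of 0 counts in a group was replaced by a floor of 3 counts over the 3 cultures of the group together. Totals of 1 to 3 counts are given as ratios with exact 95% intervals, which cover counting error only. Promoters were RefSeq windows of GRCm38.p6 from 250 bases before to 50 after the start. Alternatives were DESeq2 1.42.0, limma 3.58.1 (voom), other scaling, filters, thresholds, strand counting, a replicate block, samples of 1 LR number, and leaving out each culture.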

Additional observations from a re-analysis of the deposited data

Results flagged for a closer look

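The genotype difference changed between 10 days and 12 weeks for 4593 genes by the interaction term of the edgeR fit. Of these changes, 256 genes turned from lower to higher in Ctsd-/- cells and 104 from higher to lower, each called at both times. Among the EMT genes that turned, the interaction log2 FC was 15.21 for Vim, 9.58 for Zeb1, 6.31 for Zeb2 and 4.58 for Lef1, a Wnt effector whose call at 12 weeks was lost without replicate 1 of the Ctsd+/+ cells.

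Among genes that were higher at 12 weeks only, the largest interactions (log2 FC in brackets) were those of Alpl (8.76), Egln3 (7.19), Rasgrp3 (6.76), Ace (6.41), Sema6d (5.88), Papln (5.68), Tnfrsf11b (5.60), Cpeb1 (5.21), Eno2 (5.19), Cdsn (5.11), Mmp19 (5.01), C1s1 (4.91), Adamts9 (4.82), Gsdme (4.78) and Focad (4.65). Alpl, the tissue-nonspecific alkaline phosphatase, had 32.2, 9.01 and 0.411 CPM in the 3 Ctsd-/- cultures of 12 weeks, and Ace, the angiotensin-converting enzyme, had 522, 175 and 30.5 CPM, so replicate 1 was the highest and replicate 3 the lowest in both. Alpl was not called at 12 weeks with voom (adjusted p = 0.0998), and its interaction missed the threshold without replicate 1 of the Ctsd+/+ cells of 10 days (adjusted p = 0.462) and within the samples of the most common LR number (adjusted p = 0.0527). Rasgrp3 was also called lower at 10 days with DESeq2, without a filter, with the replicate block, within the samples of that LR number, and without replicate 1 of the Ctsd+/+ cells of 10 days or replicate 3 of the Ctsd-/- cells of 12 weeks. Among genes that were lower at 12 weeks only, they were those of Stra6 (−8.77), C1qtnf1 (−5.02), Padi2 (−4.95), Gda (−4.59), Slc5a5 (−4.51), Pof1b (−4.39), Fam169a (−3.98), Dsg3 (−3.93), Il18r1 (−3.92), Tgm1 (−3.85), Wnt10a (−3.65), Clip4 (−3.59), Psapl1 (−3.48), Htr5b (−3.48) and Ckmt1 (−3.39). No explanation of these changes was tested.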

How the results depend on the processing

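Without a fold threshold, 6003 genes differed at 12 weeks (3109 higher, 2894 lower), 1140 at 12 weeks only (673 higher, 467 lower), 2916 at both times with the same sign and 775 with opposite signs, and 534 list members were called in place of 342. With an average log2 CPM above 1.3, 1772 genes differed (912 higher, 860 lower) and 747 had the same sign at both times. Itga7 reversed when reads were counted regardless of strand (log2 FC 0.13 in place of −1.06); the cause was not tested.

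The other alternatives gave counts over all genes within 1.5 times of those reported: DESeq2 called 2958 genes, voom 2886, DESeq2 size factors 2951, no filter 3330, counting regardless of strand 3001, the 6 samples alone 2838 and the samples of 1 LR number 2971. The last kept 74.0% of the 692 genes that differed at 12 weeks only. Deviations from the group mean were correlated between cultures of the genotypes. At 12 weeks same-numbered cultures had correlations of 0.070, 0.0018 and 0.119, and different-numbered ones −0.097 to 0.046. At 10 days same-numbered cultures had 0.362, 0.10 and 0.299, and different-numbered ones −0.361 to 0.195. Whether cultures of the same number were handled together was not tested. The replicate block called 3007 genes, 729 at 12 weeks only. Counts of single lists moved more often, past 1.5 times in 2 (DESeq2 size factors) to 33 (1 LR number) of the list counts under each of these alternatives and in 230 of those without 1 culture. Leaving out 1 culture gave 2617 to 3109 genes (1231 to 1470 higher, 1381 to 1703 lower), 575 to 716 at 12 weeks only (349 to 431 higher, 215 to 322 lower), 1180 to 1360 with the same sign and 272 to 387 with opposite signs, and a log2 FC of −3.86 to −3.65 for Ctsd. Genes below 1 CPM rest on few reads.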
